A study of Mus musculus with 11 samples.

Results

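The genes described are 7 matrix metalloproteinases (MMPs), Mmp2, Mmp3, Mmp9, Mmp10, Mmp12, Mmp13 and Mmp14, and 3 tissue inhibitors of metalloproteinases (TIMPs), Timp1, Timp2 and Timp3. They were chosen by symbol, and all 10 were found among the 49315 genes of the count table. Enough reads for a test were found for 9 of the 10, among 18375 genes tested in all, and Mmp10 was the exception.

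MMPs are zinc-dependent endopeptidases that are made as inactive precursors and, once activated, cleave collagens, elastin, laminins and other extracellular proteins. TIMPs bind the active site of MMPs and block it. In skin the family is known for its part in dermal remodelling, hair follicle growth, wound repair and the passage of leukocytes through basement membranes.

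Whole skin of neonatal mice was profiled by bulk RNA sequencing after regulatory T cells (Tregs) had been depleted over different windows of early life. All mice were Foxp3-DTR animals (B6.129(Cg)-Foxp3tm3(DTR/GFP)Ayr/J) on a C57BL/6J background, in which the diphtheria toxin receptor is driven from the Foxp3 locus, so that diphtheria toxin (DT) acts on any cell that expresses Foxp3. Both sexes were used and the sex of each mouse was not recorded. DT was given into the peritoneum at 30 ng per g, and skin was taken as 4 mm biopsies.

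The control group was 2 mice that received PBS, and the day of their harvest is not in the labels. The ΔETreg group was 3 mice given DT on postnatal days P6 and P8 and harvested on P9. The ΔLTreg group was 3 mice given DT on P10 and P12 and harvested on P13. The ΔTreg group was 3 mice given 4 doses of DT from P6 to P12 and harvested on P13. Age at harvest therefore cannot be told apart from the depletion window when ΔETreg is compared with ΔLTreg or ΔTreg, whereas ΔTreg and ΔLTreg skin was taken at the same age. The paper describes its controls as matched for age, on P9 for ΔETreg and P13 for ΔLTreg, but the labels do not say on which day either control mouse was harvested. The same 2 mice serve every comparison with control here, so age and treatment cannot be told apart in them. No group received DT without carrying the receptor.

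Between 23377571 and 34159435 reads per mouse were assigned to genes. Levels are given as counts, or as CPM, counts relative to a library size scaled by the trimmed mean of M values (TMM). Genes of keratinocytes and hair follicles were abundant in every library. The 5 keratinocyte markers summed to between 7919 and 10254 CPM per mouse, with Krt5 the most abundant, and the 5 hair follicle markers to between 15157 and 23358 CPM, with Krt71 the most abundant. None of these 10 genes was at 0.

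Foxp3, the gene whose cells were targeted, was barely sampled in whole skin. Its counts were 20 and 14 for control, 10, 16 and 11 for ΔETreg, then 23, 13 and 13 for ΔLTreg, with 9, 19 and 18 for ΔTreg. These ranges overlap, so the transcript does not check the labels at this depth.

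A pair of libraries stood apart within their group. ΔLTreg replicate 3 had the lowest CPM of its group for 8 of the 9 tested members. ΔLTreg replicate 1 held 2990 counts of Fos and 1016 of Fosb, which encode subunits of the AP-1 transcription factor, against 559 and 501 counts of Fos and 79 and 102 of Fosb in the other ΔLTreg mice. Calls of members that change without either mouse are given with the value obtained without it. Results of the other lists that involve ΔLTreg were not checked without these mice.

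In ΔTreg skin the proteases Mmp9, Mmp12 and Mmp13 and the inhibitor Timp1 were higher than in control, and no member was called lower. This was 4 of 9 tested, beside 21.5% of all genes tested (3946 of 18375, with 2220 higher and 1726 lower) by edgeR's quasi-likelihood test at a Benjamini-Hochberg adjusted p below 0.05. The median log2 difference of the 9 was 0.79, and that of all genes tested was -0.0059. DESeq2 called 4 members higher and 1, Mmp2, lower. Mmp13 passed the filter on low counts through the ΔTreg group alone, so its call is not used as support. Without it the count was 3 of 8 with a median of 0.49. These counts are a description, and no test was made of the members' share against the background.

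The same 4 genes were higher in ΔTreg than in ΔLTreg, the groups harvested at 1 age. ΔTreg received 4 doses of DT from P6 and ΔLTreg received 2 from P10. The number of doses and the time since the first dose cannot be told apart here. The count was 4 of 9, beside 16.8% of all genes tested, with a median log2 difference of 0.27 for the members and -0.0044 for all genes. Without Mmp13 it was 3 of 8 with a median of 0.23, and DESeq2 called 4 higher and 0 lower. Against ΔETreg, 5 members were higher in ΔTreg, the same 4 and Mmp3, beside 23.1% of all genes, with a median of 1.03 for the members and -0.0019 for all genes. Without Mmp13 it was 4 of 8 with a median of 0.62. DESeq2 called 6 members higher in ΔTreg than in ΔETreg and 2, Mmp2 and Mmp14, lower. These comparisons use the same 3 ΔTreg mice and are not independent of each other.

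Neither short depletion moved any member past adjustment in the main edgeR fit. In ΔETreg against control the count was 0 of 9 by edgeR, beside 0.00544% of all genes tested, which was 1 gene, and it was also 0 at an unadjusted p below 0.05, beside 4.75% of all genes, and 0 by DESeq2. In ΔLTreg against control it was 0 of 9 by edgeR, beside 4.55% of all genes tested, with 4 members (Mmp2, Mmp3, Mmp9 and Mmp14) at an unadjusted p below 0.05, beside 20.2% of all genes, and 0 by DESeq2. The median log2 difference was -0.074 in ΔETreg and 0.092 in ΔLTreg, or -0.088 and 0.045 without Mmp13, which had no more than 3 counts in any of these mice, and the medians of all genes were -0.0098 and 0.0040. Comparisons with control share its 2 mice.

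Between the short depletions, 2 members were lower in ΔETreg than in ΔLTreg, Mmp3 and Mmp9, beside 6.38% of all genes tested. DESeq2 called these 2 lower and Mmp2 higher. The median of the members was -0.026, or -0.10 without Mmp13, and that of all genes was -0.0053. Of the cell type markers described below, edgeR called 2 of 5 neutrophil and 3 of 5 skeletal muscle markers lower in ΔETreg. It called 1 each of the endothelial, adipocyte and wounded keratinocyte markers lower. The keratinocyte, fibroblast, and bone and cartilage markers had 1 each called higher. Their part in the result was not tested.

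**Figure D1:**
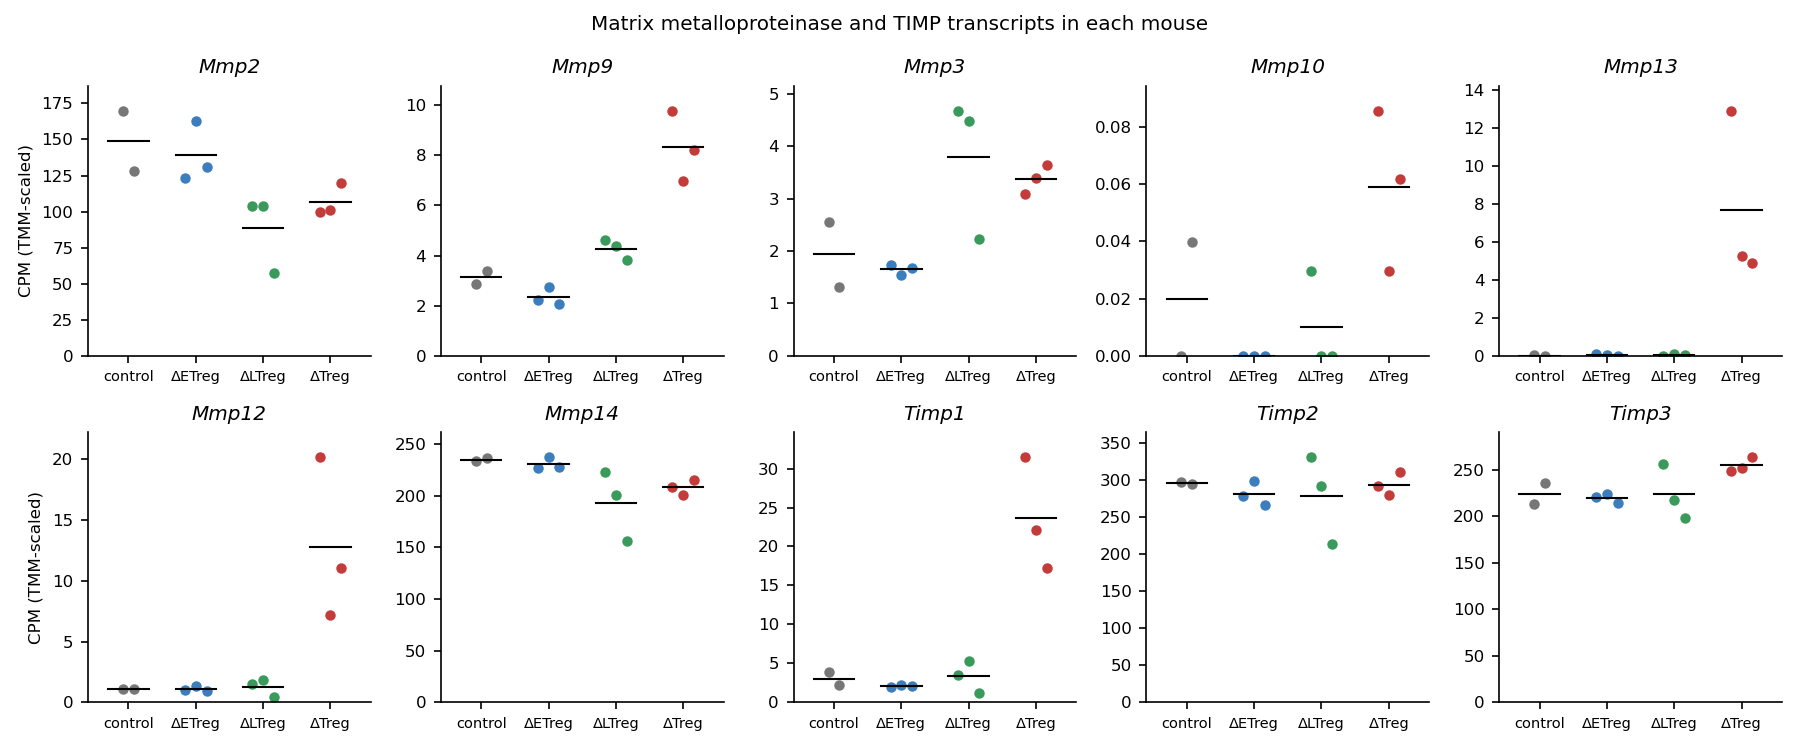
CPM of each of the 10 genes (vertical axes, each starting at 0) in each of the 11 mice (points), by group, with a line at the group mean. Mmp9, Mmp12, Mmp13 and Timp1 were higher in all 3 ΔTreg mice than in every other mouse, whereas Mmp14, Timp2 and Timp3 overlapped between ΔTreg and ΔLTreg.

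Mmp9 is gelatinase B, which degrades denatured collagen and the type IV collagen of basement membranes and is stored in neutrophil granules. Its level was 2.87 and 3.39 CPM in the control mice and 2.23, 2.76 and 2.06 CPM in ΔETreg. It was 4.62, 4.39 and 3.82 CPM in ΔLTreg, and 9.78, 6.98 and 8.19 CPM in ΔTreg. The 4 groups did not overlap for this gene, with ΔETreg lowest, then control, ΔLTreg and ΔTreg. The log2 fold change in ΔTreg against control was 1.41 (SE 0.182, adjusted p = 0.000331 by edgeR), with 3 of 3 ΔTreg mice above both controls. Against ΔLTreg it was 0.95 (SE 0.153, adjusted p = 0.00149 by edgeR) and against ΔETreg 1.81 (SE 0.163, adjusted p = 1.89e-05).

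Mmp9 was also lower in ΔETreg than in ΔLTreg, with a log2 difference of -0.86 (SE 0.167, adjusted p = 0.0150 by edgeR). That call was lost without ΔETreg replicate 1 (adjusted p = 0.0580) and without ΔETreg replicate 3 (0.0556), in a range of 0.0159 to 0.0580 over the 6 fits that left out a mouse. Against control, Mmp9 did not pass in ΔLTreg (0.45, SE 0.184, adjusted p = 0.193 by edgeR) or in ΔETreg (-0.40, SE 0.191, adjusted p = 1.00).

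Mmp2 is gelatinase A, which shares substrates with Mmp9 and is made mainly by fibroblasts. It stood at 170 and 128 CPM in the control mice, 123, 163 and 131 CPM in ΔETreg, 104, 104 and 57.2 CPM in ΔLTreg, and 99.4, 101 and 120 CPM in ΔTreg. Every ΔLTreg and ΔTreg mouse lay below every control and ΔETreg mouse. None of the 6 comparisons passed adjustment by edgeR. The log2 difference from control was -0.75 in ΔLTreg (SE 0.228, adjusted p = 0.0914) and -0.48 in ΔTreg (SE 0.228, adjusted p = 0.163). That of ΔLTreg ran from -0.94 to -0.52 over the 5 fits that left out a mouse. The ΔTreg difference passed with DESeq2 (adjusted p = 0.00260) and when edgeR was fitted to these 2 groups alone (adjusted p = 0.0295). It ran from -0.68 to -0.27 over the 5 fits that left out a mouse, none of which passed. ΔTreg against ΔETreg (-0.38, SE 0.206, adjusted p = 0.225 by edgeR) passed with DESeq2 (0.000876) and with edgeR on the 2 groups (0.0278). ΔETreg against ΔLTreg (0.65, SE 0.207, adjusted p = 0.0882 by edgeR) passed with DESeq2 (0.0152). Without a filter on low counts edgeR called Mmp2 in 5 of the 6 comparisons, all but ΔETreg against control (adjusted p from 3.33e-08 to 0.0472). The side of the threshold on which Mmp2 fell thus depended on the fit.

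Mmp13 is the main interstitial collagenase of the mouse, able to cut the triple helix of fibrillar collagens. Its counts were 1 and 0 for control, 3, 2 and 0 for ΔETreg, and 0, 3 and 2 for ΔLTreg. In ΔTreg it had 301, 177 and 158 counts, or 12.9, 5.26 and 4.88 CPM. Outside ΔTreg no library exceeded 3 counts, which was taken as the floor of detection per library, and ΔTreg stood far above it in all 3 mice. A fitted fold change would depend on the prior count, so ratios of pooled counts are given with exact 95% intervals.

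The 636 pooled Mmp13 counts of ΔTreg were 382 times the control level, with an interval of 68.3 to 15109, resting on 1 control count, which lay in replicate 1. They were 117 times the ΔETreg level (50.1 to 363) and 130 times the ΔLTreg level (55.2 to 400), each resting on 5 counts. Such intervals and the floor cover counting error only, not the spread between mice. No p is given for Mmp13, since it entered the test through the ΔTreg group alone. Without control replicate 1 the control group was left at 0 counts. The fitted log2 fold change, which depends on the prior count, ran from 7.59 to 10.77 against control, 6.29 to 7.52 against ΔETreg and 6.37 to 7.76 against ΔLTreg over the fits that left out a mouse. No fold is read among control, ΔETreg and ΔLTreg, where Mmp13 was at or under the floor.

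Mmp12 is macrophage elastase, which degrades elastin and is made mostly by macrophages. It was found at 1.09 and 1.08 CPM in the control mice and 1.01, 1.35 and 0.943 CPM in ΔETreg. It was 1.49, 1.88 and 0.470 CPM in ΔLTreg, and 20.2, 7.19 and 11.04 CPM in ΔTreg. The lowest ΔTreg mouse lay above the highest mouse of every other group, and the other 3 groups overlapped. The log2 fold change in ΔTreg was 3.55 against control (SE 0.536, adjusted p = 0.000874 by edgeR), 3.33 against ΔLTreg (SE 0.441, adjusted p = 0.000436) and 3.51 against ΔETreg (SE 0.452, adjusted p = 0.000224). ΔTreg mice spread widely, with an SD of 6.66 CPM around a mean of 12.8 CPM (n = 3). In ΔLTreg replicate 3 the level was below that of every other mouse.

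Mmp3 and Mmp10 are the stromelysins, which cleave proteoglycans, laminin and fibronectin and can activate the precursors of other MMPs. Mmp3 was at 2.56 and 1.31 CPM in the control mice and 1.74, 1.54 and 1.67 CPM in ΔETreg. It was at 4.68, 4.47 and 2.22 CPM in ΔLTreg, and 3.09, 3.39 and 3.65 CPM in ΔTreg. Both groups harvested on P13 lay above ΔETreg in every mouse, and ΔLTreg overlapped with control through replicate 3. The log2 difference was -1.19 in ΔETreg against ΔLTreg (SE 0.293, adjusted p = 0.0373 by edgeR) and 1.03 in ΔTreg against ΔETreg (SE 0.295, adjusted p = 0.0265 by edgeR). ΔTreg and ΔLTreg did not differ past the threshold (-0.16, SE 0.271, adjusted p = 0.739 by edgeR).

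Both Mmp3 calls were sensitive to leaving out a mouse. The difference of ΔTreg from ΔETreg was lost whichever of the 6 mice was left out, with edgeR's adjusted p at 0.0634, 0.0870 and 0.0684 without ΔETreg replicates 1, 2 and 3, and at 0.0518, 0.0661 and 0.0766 without ΔTreg replicates 1, 2 and 3. The difference of ΔETreg from ΔLTreg was lost without ΔETreg replicates 1, 2 or 3 (adjusted p = 0.0938, 0.138 and 0.0951 by edgeR), without ΔLTreg replicates 1 or 2 (0.0958 and 0.0886), and when edgeR was fitted to these 2 groups alone (0.0730). Without ΔLTreg replicate 3 it held (0.00443). Against control, Mmp3 did not pass in ΔLTreg (0.95, SE 0.327, adjusted p = 0.131 by edgeR) or ΔTreg (0.79, SE 0.329, adjusted p = 0.114). It passed in ΔLTreg without ΔLTreg replicate 3 (1.23, adjusted p = 0.0194) and in ΔTreg without control replicate 1 (1.36, adjusted p = 0.0462). Without a filter on low counts it passed in both (adjusted p = 0.00337 and 0.0117 by edgeR).

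Mmp10 was close to absent. Its counts were 0 and 1 for control, 0 for all 3 ΔETreg mice, 1, 0 and 0 for ΔLTreg, and 2, 1 and 2 for ΔTreg. No group exceeded the floor of 3 counts per library, and no fold is given.

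Mmp14 is the membrane-anchored MMP that activates the Mmp2 precursor at the cell surface. Its level lay between 156 and 237 CPM over the 11 mice, with the lowest value in ΔLTreg replicate 3. No comparison passed in the main edgeR fit, and the log2 difference from control was -0.28 in ΔLTreg (SE 0.114, adjusted p = 0.193) and -0.17 in ΔTreg (SE 0.114, adjusted p = 0.322). Without ΔLTreg replicate 1 the ΔLTreg difference from control passed (-0.40, adjusted p = 0.0465), as did that of ΔETreg from ΔLTreg (0.37, adjusted p = 0.0397). Over the fits that left out a mouse, the former ran from -0.40 to -0.14 and the latter from 0.13 to 0.37. Both also passed without a filter on low counts (adjusted p = 0.0297 and 0.0180 by edgeR). ΔTreg against ΔETreg (-0.15, SE 0.102, adjusted p = 0.355 by edgeR) passed with DESeq2 (0.0234) and with edgeR on the 2 groups (0.0287).

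Timp1 is a soluble, inducible inhibitor that also binds the Mmp9 precursor. Its level was 3.89 and 2.23 CPM in the control mice and 2.02, 2.20 and 2.14 CPM in ΔETreg. It was 3.46, 5.37 and 1.19 CPM in ΔLTreg, and 31.5, 22.1 and 17.2 CPM in ΔTreg. All 3 ΔTreg mice lay above all 8 others, and ΔLTreg spread across the control and ΔETreg values. The log2 fold change in ΔTreg was 2.93 against control (SE 0.475, adjusted p = 0.00135 by edgeR), 2.84 against ΔLTreg (SE 0.399, adjusted p = 0.000640) and 3.47 against ΔETreg (SE 0.422, adjusted p = 0.000152).

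Timp2, which takes part in the activation of the Mmp2 precursor by Mmp14 as well as inhibiting MMPs, stayed between 213 and 330 CPM, and its lowest and highest values were both in ΔLTreg. Its log2 difference in ΔTreg against control was -0.011 (SE 0.141, adjusted p = 0.967 by edgeR), with a 95% interval of -0.32 to 0.30. Timp3, which binds to the extracellular matrix and also inhibits proteases of the ADAM family, lay between 198 and 263 CPM. All 3 ΔTreg mice lay above both controls for Timp3, but the log2 difference of 0.19 did not pass (SE 0.0940, adjusted p = 0.191 by edgeR). Against ΔLTreg it was 0.19 (adjusted p = 0.156 by edgeR), and it passed without ΔLTreg replicate 1 (0.29, adjusted p = 0.00879). It ran from 0.11 to 0.29 there over the 6 fits that left out a mouse. Against ΔETreg the Timp3 difference was 0.21 (SE 0.0837, adjusted p = 0.0921 by edgeR), which passed with DESeq2 (0.000230), with edgeR on the 2 groups (0.00514) and without a filter on low counts (0.0440). In whole tissue, fewer cells of a type and less RNA per cell cannot be told apart, for any of these genes.

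ΔTreg replicate 1 had the highest CPM of its group for Mmp9, Mmp12, Mmp13 and Timp1. The calls of Mmp9, Mmp12 and Timp1 against control held without it, with a log2 fold change against control between 1.27 and 1.52 for Mmp9, 3.07 and 3.84 for Mmp12, and 2.59 and 3.39 for Timp1 over the 5 fits that left out a mouse.

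Levels were compared between genes as CPM per kb of exon, since longer transcripts yield more reads. The length was the union of all annotated exons of a gene, so the order of genes depends on the annotation. In control skin the mean level was 75.8 CPM per kb for Timp2, 44.3 for Mmp2, 39.4 for Mmp14, 27.5 for Timp3 and 3.45 for Timp1. The remaining MMPs followed at 1.07 CPM per kb for Mmp3, 0.884 for Mmp9 and 0.149 for Mmp12, with Mmp10 and Mmp13 below 0.05. Neighbours in this order whose ranges overlapped in control were Mmp2 with Mmp14, Mmp3 with Mmp9, and Mmp10 with Mmp13. The abundant transcripts of neonatal skin were thus those of Timp2, Mmp2, Mmp14 and Timp3.

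In ΔTreg the mean level was 75.2 CPM per kb for Timp2, 34.9 for Mmp14, 31.7 for Mmp2, 31.3 for Timp3 and 26.6 for Timp1. Below these came Mmp13 at 2.87 CPM per kb, Mmp9 at 2.35, Mmp3 at 1.87, Mmp12 at 1.77 and Mmp10 at 0.0343. The ranges of Mmp14, Mmp2, Timp3 and Timp1 overlapped from neighbour to neighbour, as did those of Mmp13, Mmp9, Mmp3 and Mmp12. The higher mean of Mmp13 came from ΔTreg replicate 1, at 4.83 CPM per kb, and Mmp9 lay above it in the other ΔTreg mice. The exon union was 7237 bases for Mmp12, against 2673 for Mmp13, 3539 for Mmp9 and 1801 for Mmp3. In plain CPM the ΔTreg means were 12.8 for Mmp12, 8.32 for Mmp9, 7.68 for Mmp13 and 3.37 for Mmp3. The ranges of Mmp12, Mmp9 and Mmp13 overlapped there too.

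The balance of protease to inhibitor transcripts was described for each mouse as the summed level of the 7 MMPs over that of the 3 TIMPs, both in CPM per kb. This ratio was 0.863 and 0.744 in the control mice and 0.758, 0.845 and 0.811 in ΔETreg. It was 0.603, 0.639 and 0.566 in ΔLTreg, and 0.545, 0.554 and 0.606 in ΔTreg. The control and ΔETreg mice overlapped with each other and lay above all ΔLTreg and ΔTreg mice, which also overlapped. No test was made of this score.

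The terms behind the ratio differed between the groups. In ΔLTreg the mean MMP sum was 62.2 CPM per kb ± 14.6 (SD, n = 3) and the TIMP sum 103 ± 20.4, against 85.8 ± 8.79 and 107 ± 0.277 in control (SD, n = 2). In ΔTreg the MMP sum was 75.6 ± 4.53 and the TIMP sum 133 ± 6.82 (SD, n = 3). The TIMP sum of all 3 ΔTreg mice exceeded that of all other mice.

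Timp1 made up 4.11% and 2.35% of the TIMP sum in the control mice, 2.26%, 2.33% and 2.49% for ΔETreg, 3.24%, 5.64% and 1.67% for ΔLTreg, and 25.2%, 19.6% and 14.8% for ΔTreg. Mmp2 and Mmp14 together made up 97.4% and 97.7% of the MMP sum in control, and 84.2%, 90.3% and 90.3% in ΔTreg. The share of Mmp3, Mmp9, Mmp12 and Mmp13 together was 2.60% and 2.31% in control, 2.33%, 2.05% and 2.08% for ΔETreg, 5.67%, 5.87% and 5.28% for ΔLTreg, and 15.8%, 9.65% and 9.68% for ΔTreg. For this share ΔLTreg lay between the other groups without overlap. The sum of these 4 proteases per unit of Timp1 was lowest in ΔTreg, at 0.341, 0.273 and 0.397, against 0.547 and 0.731 in control. These 4 were grouped with their values known, and Mmp13 passed the filter through the ΔTreg group alone. The order of the groups on these 2 scores thus restates the values of the single genes and is not used as support.

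**Figure D2:**
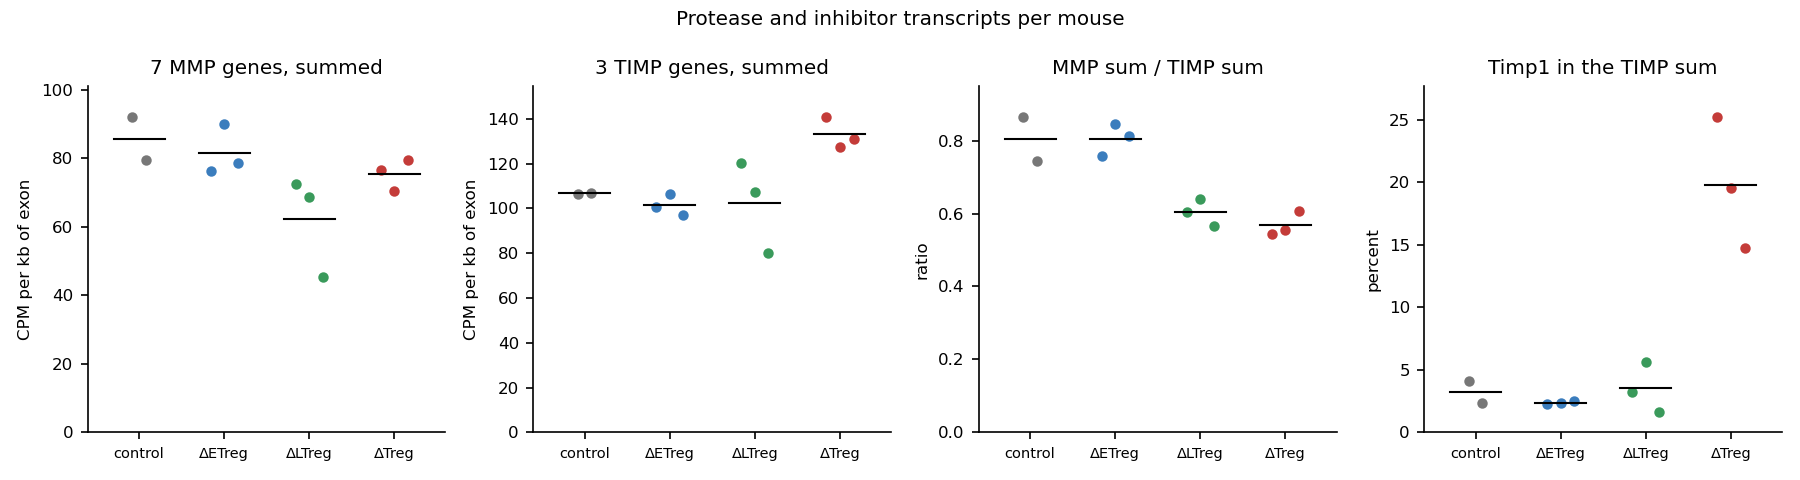
Summed CPM per kb of exon of the 7 MMP genes and of the 3 TIMP genes, the ratio of these sums, and the percent of the TIMP sum that was Timp1 (vertical axes, each starting at 0), in each mouse (points), with a line at the group mean. The MMP to TIMP ratio was lower in all ΔLTreg and ΔTreg mice than in the control and ΔETreg mice, and Timp1 reached 14.8% to 25.2% of the TIMP sum in ΔTreg.

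The members lie at several places in the genome (GRCm38, GENCODE vM21 annotation). Mmp2 is at chr8:92827291-92853420 (+), Mmp9 at chr2:164940780-164955850 (+) and Mmp14 at chr14:54431612-54445364 (+). Timp1 is at chrX:20870166-20874735 (+), Timp2 at chr11:118301069-118355740 (-) and Timp3 at chr10:86300372-86349506 (+). The other 4 sit in a cluster of MMP genes on chromosome 9, with Mmp13 at chr9:7272514-7283331, Mmp12 at chr9:7344381-7369499, Mmp3 at chr9:7445822-7455975 and Mmp10 at chr9:7502352-7510240, all on the plus strand.

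Among neighbours in this cluster, Mmp12 was called higher in ΔTreg than in control by edgeR, and Mmp13 and Mmp8, which passed the filter through ΔTreg alone, had more counts in every ΔTreg mouse than in any other. Mmp3, Mmp20 and Mmp27 did not pass in the main fit, and Mmp10 was at the floor. Whether these genes differed from each other in their change was not tested. Mmp1a, Mmp1b and Mmp7 had 0 counts in all 11 libraries, which allows up to 3 counts in each.

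**Figure D3:**
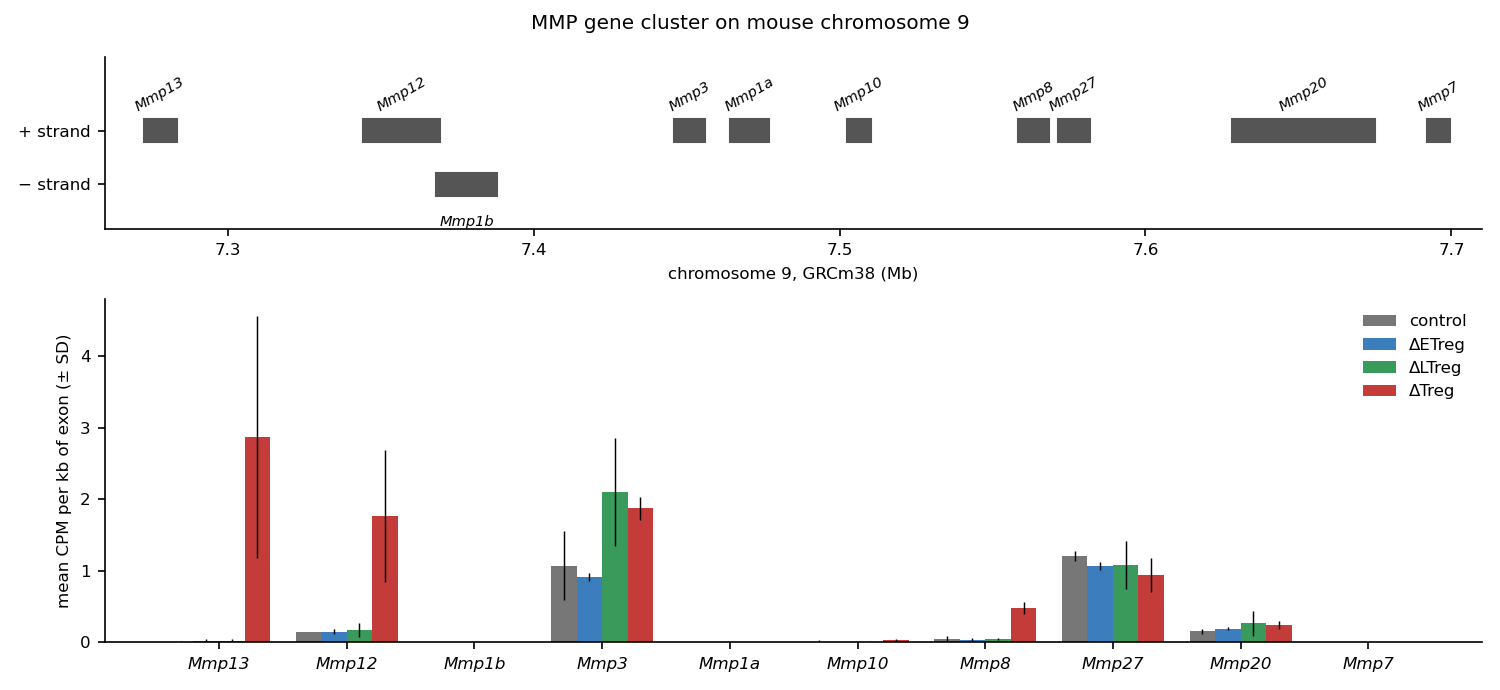
Map of the MMP genes of the chromosome 9 cluster (GRCm38, position on the horizontal axis, strand shown by height). Below it is the mean CPM per kb of exon of each gene in each group, with bars for the SD (n = 2 mice in control and 3 in the other groups). Mmp13, Mmp12 and Mmp8 stood higher in ΔTreg than in the other groups, and Mmp1a, Mmp1b and Mmp7 were at 0.

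Some reads of these genes may belong to a neighbour, since the strand setting of the counting is not given in the sources used here. Mmp12 shares 157 exonic bases with Mmp1b on the other strand, which is 2.17% of its exons, and Mmp1b had 0 counts in every library. Timp3 shares 1733 exonic bases with Syn3 on the other strand, which is 21.3% of its exons, and Syn3 had between 31 and 78 counts per library. Timp3 reads from that stretch are therefore uncertain.

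Promoters were looked at because Mmp13 and Mmp12, of the same cluster, both rose in ΔTreg. RefSeq promoter sequences of GRCm38.p6, from 250 bases before to 50 bases after a gene's start, were matched to 8 members with 9 promoters, Mmp12 having 2, and those of Mmp2 and Mmp9 were not matched. The motifs searched, on both strands, were AP-1 (TGAGTCA), the ETS core PEA3 (AGGAAG), the STAT site GAS (TTCNNNGAA) and the TATA box (TATAAA). AP-1 was found in 4 members, beside 5.2% of all 32851 promoters, a share that counts promoters rather than genes. These 4 were the members in the cluster, and its other MMP genes were not looked at. For Mmp12 only the downstream of its 2 promoters held the match. The letters of the TATA box were found in the same 4, beside 13.6% of promoters. They began at -16 from the start for Mmp13, at -7 for Mmp3 and at -29 for Mmp10. For Mmp12 they began at 5, past its downstream start and outside the stretch shown, so this is not an upstream match. PEA3 was found in 6 members, beside 35.4%, and GAS in 0, beside 8.3%.

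The stretches of 120 bases around the AP-1 match are shown for the 4 members in the cluster, as they hold the match that these members share. Capitals mark AP-1 (TGAGTCA, or TGACTCA where it lies on the minus strand) and the TATA box (TATAAA). They are chr9:7272394-7272513 (+) for Mmp13, chr9:7347254-7347373 (+) for Mmp12, chr9:7445702-7445821 (+) for Mmp3 and chr9:7502222-7502341 (+) for Mmp10, none of them overlapping an annotated exon. That of Mmp12 lies before the downstream start of its 2 promoters and inside an intron of the longer transcripts.
Mmp13: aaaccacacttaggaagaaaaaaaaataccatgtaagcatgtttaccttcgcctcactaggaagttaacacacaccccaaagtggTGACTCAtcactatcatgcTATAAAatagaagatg
Mmp12: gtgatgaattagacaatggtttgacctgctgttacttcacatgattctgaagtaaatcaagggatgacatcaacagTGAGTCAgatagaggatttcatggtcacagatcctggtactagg
Mmp3: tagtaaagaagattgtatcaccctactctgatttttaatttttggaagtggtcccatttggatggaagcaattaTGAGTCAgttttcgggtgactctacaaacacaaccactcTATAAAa
Mmp10: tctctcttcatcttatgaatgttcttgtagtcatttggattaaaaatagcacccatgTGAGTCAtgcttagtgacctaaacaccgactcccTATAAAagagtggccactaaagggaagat

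The first base of the AP-1 match lay at -35 from the start for Mmp13, at -44 for Mmp12, at -46 for Mmp3 and at -63 for Mmp10. Timp1 held no AP-1 match in this window. A match describes the letters and is not evidence of binding, and no relation between matches and changes in level was tested.

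Of 17 other MMP and TIMP genes listed, 12 were tested, and 5 of these changed in ΔTreg against control by edgeR, 3 higher and 2 lower, beside 21.5% of all genes. Mmp8, the collagenase of neutrophils, had 1 and 5 counts in control, 0, 4 and 3 for ΔETreg, 3, 4 and 3 for ΔLTreg, and 33, 36 and 34 for ΔTreg. Every ΔTreg mouse stood above all others, with a log2 fold change against control of 3.33 (SE 0.586), which was 2.52 without control replicate 1 and 4.89 without control replicate 2. Mmp8 passed the filter through the ΔTreg group alone, and without it the count was 4 of 11. Mmp25, a membrane-anchored MMP of leukocytes, rose by 1.42 (SE 0.328, adjusted p = 0.0106 by edgeR), and Timp4 by 0.72 (SE 0.214, adjusted p = 0.0342).

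Mmp16, another membrane-type MMP, fell in ΔTreg against control, with a log2 fold change of -1.29 (SE 0.221, adjusted p = 0.00189 by edgeR). Mmp23 had a log2 fold change of -0.82 (SE 0.226, adjusted p = 0.0254 by edgeR), but no longer passed when any of the 5 mice was left out (adjusted p between 0.0566 and 0.114). Mmp25 was lost without control replicate 2 (adjusted p = 0.100, from 0.0242 to 0.100 over the 5 fits). Timp4 was lost without control replicate 2 (0.247), ΔTreg replicate 2 (0.111) or ΔTreg replicate 3 (0.0660). Without ΔTreg replicate 2 or 3 the count past adjustment was 3 of 12, with Mmp8 among them. It also fell without control replicate 2, where 13 genes of the list were tested.

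Mmp19 did not pass against control in the main fit (0.77, SE 0.316, adjusted p = 0.111 by edgeR) but did with DESeq2 (0.00345), with edgeR on the 2 groups (0.0314) and without a filter on low counts (0.000540). Mmp11 (0.43, SE 0.246, adjusted p = 0.246 by edgeR) passed only without a filter (0.0493).

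Against ΔLTreg, leaving out Mmp8, 4 of 11 were higher in ΔTreg by edgeR and 0 lower, beside 16.8% of all genes, with log2 differences of 1.57 for Mmp19, 1.23 for Mmp25, 1.13 for Mmp11 and 1.00 for Timp4 and a median of -0.017. Against ΔETreg, again without Mmp8, 2 of 11 were higher (Mmp25 and Timp4) and 2 lower (Mmp16, -1.21, and Mmp23, -0.69), beside 23.1% of all genes. Mmp16 was lower in ΔLTreg than in control (-1.14, SE 0.219, adjusted p = 0.0169 by edgeR) and higher in ΔETreg than in ΔLTreg (1.07, SE 0.200, adjusted p = 0.0129), so that it was lower in both groups harvested on P13 than in control and ΔETreg. In ΔETreg against control the count was 0 of 12 by edgeR, beside 0.00544% of all genes. It was 0 at an unadjusted p below 0.05, beside 4.75% of all genes, and 0 by DESeq2.

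Related proteases and regulators were described from lists. Of 27 tested genes of the ADAM and ADAMTS families, 4 rose and 8 fell in ΔTreg against control, with a median log2 difference of -0.32. The share of all genes called in this comparison, 21.5%, is the background for this list and those that follow. Adam8, a leukocyte sheddase, rose by 2.52 (SE 0.281), and Adamts17 and Adamts18 had log2 fold changes of -2.00 (SE 0.157) and -1.85 (SE 0.291). Of 14 tested genes of the plasminogen system and other MMP regulators, 5 rose and 1 fell, with a median of 0.20. They included Lcn2, whose product binds MMP9 and protects it from degradation (3.15, SE 0.388), the plasminogen activator Plau (0.87, SE 0.148) and thrombospondin Thbs1 (0.87, SE 0.137). All these genes passed at adjusted p below 0.05 by edgeR in 3 of 3 ΔTreg mice beyond both controls.

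Matrix substrates were described in the same way. Of 18 tested, 0 rose and 8 fell in ΔTreg against control by edgeR, with a median log2 difference of -0.56, while DESeq2 called 2 higher and 11 lower, and 13 passed without a filter on low counts. Some had higher means in ΔTreg without passing by edgeR, such as Fn1 (765 against 585 CPM in control), Col17a1 (554 against 452 CPM) and Tnc (218 against 182 CPM). The basement membrane collagens Col4a1 and Col4a2 had log2 fold changes of -0.66 (SE 0.0848) and -0.47 (SE 0.0795), and aggrecan, Acan, -2.40 (SE 0.373), which was -1.63 without control replicate 2. The count was 4 without control replicate 1, and 5 without ΔTreg replicate 1 or ΔTreg replicate 2. In ΔTreg against ΔLTreg it was 0 higher and 1 lower of 18 by edgeR, and 1 higher and 0 lower by DESeq2. Col1a1, Col1a2, Col3a1 and Dcn are also among the fibroblast markers below, and Acan among the bone and cartilage genes, so these lists are not separate observations.

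Of 19 tested genes in a list of cytokines, growth factors, AP-1 subunits and ETS factors, 11 rose and 0 fell in ΔTreg against control, with a median of 0.64. Whether any of them raised or lowered an MMP here was not tested. Tgfb1 had a log2 fold change of 0.64 (SE 0.0743). Il6 had 72 pooled counts in ΔTreg and 3 in control, a ratio of 14.4 with an exact 95% interval of 4.74 to 71.5. Ifng had 193 and 3 counts, a ratio of 38.6 (13.02 to 189), with all 3 control counts in replicate 1. Its fitted log2 fold change ran from 4.30 to 8.97 over the fits that left out a mouse. The count was 6 without control replicate 2 and 7 without ΔTreg replicate 1. Il6, Ifng and Osm passed the filter through the ΔTreg group alone, and without them it was 8 of 16 with a median of 0.45. Il17a had 0 counts in every library, and Il24 had counts in ΔTreg alone, at 4, 7 and 4.

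Fewer genes of these lists passed after a short depletion, as did fewer of all genes. In ΔETreg against control, 0 genes of any related list passed by edgeR, beside 0.00544% of all genes, which was 1 gene. These counts are therefore not a result about the lists. At an unadjusted p below 0.05 there were 3 of the cytokine list and 0 of the others, beside 4.75% of all genes. DESeq2 called 0 in all. In ΔLTreg against control, beside 4.55% of all genes, 6 of the 27 ADAM and ADAMTS genes and 4 of the 18 substrates were lower, while 1 of 14 plasminogen system and regulator genes was lower and 1 of the 19 in the cytokine list higher. In ΔTreg against ΔLTreg, beside 16.8% of all genes, the counts higher and lower were 8 and 3 for ADAM and ADAMTS genes, 7 and 1 for the plasminogen system and regulators, and, without Il6, Ifng and Osm, 8 and 0 of 16 for the cytokine list. Whether ΔTreg differed from ΔLTreg was tested only gene by gene.

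Markers of cell types that make these proteases were counted beside them. Macrophage markers summed to 169 and 147 CPM in the control mice, 155, 164 and 110 CPM in ΔETreg, 128, 183 and 66.9 CPM in ΔLTreg, and 568, 417 and 516 CPM in ΔTreg, with Mrc1 the most abundant. All 3 ΔTreg mice lay above all others, and ΔLTreg replicate 3, the lowest, was also the lowest of all mice for Mmp12 and Timp1. That match is not particular to macrophage markers, since this mouse was the lowest of its group for 8 of the 9 tested members. In ΔTreg against control 5 of 8 rose, among them Mrc1 (2.04, SE 0.318), C1qb (2.29, SE 0.377) and C1qa (2.21, SE 0.394). The count was 3 without control replicate 2 and 3 without ΔTreg replicate 1. No macrophage marker was at 0, and their part in the result was not tested.

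Neutrophil markers summed to 13.4 and 14.2 CPM in control, 11.8, 9.04 and 9.51 CPM in ΔETreg, 17.1, 18.3 and 17.4 CPM in ΔLTreg, and 41.1, 32.8 and 35.1 CPM in ΔTreg, with S100a8 the most abundant. The 4 groups did not overlap for this sum, but without S100a8 it was 5.36 and 3.23 CPM in control and 5.51, 6.39 and 3.48 CPM in ΔLTreg, which overlapped, and only ΔTreg, at 26.1, 17.4 and 19.7 CPM, stood above all other mice. Of 8 markers 5 were tested, and all 5 rose in ΔTreg against control, with log2 fold changes of 2.38 for S100a9 (SE 0.159), 3.19 for Retnlg (SE 0.607) and 1.73 for Cxcr2 (SE 0.350). Retnlg was 4.57 without control replicate 1 and 2.55 without control replicate 2. Without control replicate 2 Cxcr2 was 1.55 and no longer passed, and it was not the only marker lost. Retnlg passed the filter through the ΔTreg group alone. The defining genes Ly6g and Mpo had at most 3 counts in any library, and Elane at most 4. Their part in the result was not tested.

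T cell markers summed to 10.4 and 12.7 CPM in control, 10.2, 12.6 and 12.9 CPM in ΔETreg, 15.7, 14.9 and 12.7 CPM in ΔLTreg, and 58.9, 47.8 and 57.8 CPM in ΔTreg, with Cd3g the most abundant. All 7 rose in ΔTreg against control. Cd8a had 770 pooled counts in ΔTreg and 2 in control, a ratio of 231 with an exact 95% interval of 63.8 to 1913, and Cd8b1 had 341 and 1, a ratio of 205 (36.5 to 8112). The control counts of each lay in a single mouse, and the fitted log2 fold change ran from 6.70 to 10.99 for Cd8a and from 6.62 to 9.81 for Cd8b1 over the fits that left out a mouse. Trac had a log2 fold change of 4.98 (SE 0.398). Cd8a, Cd8b1 and Trac passed the filter through the ΔTreg group alone, and the other 4 all rose. Their part in the result was not tested.

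Fibroblast markers summed to 21580 and 18124 CPM in control, 13663, 24277 and 18731 CPM in ΔETreg, 16202, 18365 and 8396 CPM in ΔLTreg, and 9903, 9978 and 11229 CPM in ΔTreg, with Col1a1 the most abundant. The lowest sum was that of ΔLTreg replicate 3, which also had the lowest Mmp2, Mmp14 and Timp2. That mouse was the lowest of its group for 8 of the 9 tested members. It also had the lowest macrophage and mast cell sums, at 66.9 and 52.7 CPM, so the match is not particular to fibroblast markers. In ΔTreg against control 3 of 7 had an adjusted p below 0.05 by edgeR, Col1a1 (-1.02, SE 0.294), Col1a2 (-1.07, SE 0.289) and Lum (-0.94, SE 0.269). Their count was 0 without control replicate 1, control replicate 2, ΔTreg replicate 1 or ΔTreg replicate 2, and 1 without ΔTreg replicate 3. It was 5 without a filter on low counts, with edgeR on the 2 groups and with DESeq2, which called 0 higher and 5 lower. No marker was at 0, and their part in the result was not tested.

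The sum of the keratinocyte markers overlapped between control and ΔTreg, with 1 of 5 up and 2 down in ΔTreg against control. Without Krt5 the sum was 6002 and 5186 CPM in control and 5127, 4988 and 5056 CPM in ΔTreg, which did not overlap. Krt1 fell, with a log2 fold change of -1.93 (SE 0.279), while Krt14 (0.40, SE 0.103) and Krt10 (-0.66, SE 0.198) lost their calls when single mice were left out. By edgeR the adjusted p of Krt14 was 0.0789 without control replicate 1, 0.0708 without control replicate 2 and 0.0677 without ΔTreg replicate 1. That of Krt10 was 0.218 without control replicate 1, and 0.108, 0.0828 and 0.0605 without ΔTreg replicates 1, 2 and 3. The count of the 5 was 1 without control replicate 1 or ΔTreg replicate 1. Markers of wounded or activated keratinocytes summed to 3656 and 3619 CPM in control, 3784, 4146 and 4217 CPM in ΔETreg, 4940, 4600 and 4302 CPM in ΔLTreg, and 5111, 5014 and 4603 CPM in ΔTreg, with Krt17 the most abundant. Of these 5, 4 rose in ΔTreg against control, including Krt6b (4.46, SE 0.368), Krt16 (1.58, SE 0.198) and Krt6a (1.20, SE 0.101). None was at 0, and their part in the result was not tested.

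Endothelial markers changed in both directions in ΔTreg against control by edgeR. Of 5, 2 rose and 2 fell, and all 5 had an unadjusted p below 0.05, beside 34.2% of all genes, with Pecam1 at 0.69 (SE 0.0470), Kdr at -0.67 (SE 0.125) and Cdh5 at -0.36 (SE 0.0701). Without control replicate 2 Cdh5 was -0.28 and no longer passed, and it was not the only endothelial marker lost. Hair follicle, adipocyte and mast cell markers gave 0 of 5 each, with 0 at an unadjusted p below 0.05 in each, and DESeq2 called 0, 2 and 1 of them. Hoxc13, Krt27 and Krt25 had log2 differences of 0.11, 0.23 and -0.12, and Plin1, Adipoq and Fabp4 of -1.28, -1.17 and -0.14. Plin1 ran from -1.84 to -0.40 and Adipoq from -1.60 to -0.58 when a mouse was left out, with none of these fits passing, while both passed with DESeq2 (adjusted p = 0.00708 and 0.0106) and without a filter on low counts (0.00127 and 0.00273 by edgeR). Cma1, Cpa3 and Tpsb2 stood at -0.40, -0.33 and -0.37, and Cma1 passed with DESeq2 (adjusted p = 0.00238), with edgeR on the 2 groups (0.0129) and without a filter (0.0247).

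Against ΔLTreg the adipocyte markers were lower in ΔTreg, with a median log2 difference of -1.70 and all 5 at an unadjusted p below 0.05, beside 30.5% of all genes. Adipoq passed by edgeR (-2.19, SE 0.658, adjusted p = 0.0432), and DESeq2 called all 5 lower. Their sum was 393, 468 and 364 CPM in ΔLTreg and 279, 332 and 314 CPM in ΔTreg, which did not overlap, and their part in the result was not tested.

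In the same comparison, beside 16.8% of all genes, edgeR called 7 of 8 macrophage markers higher. It called 3 of 4 neutrophil and 4 of 4 T cell markers higher, leaving out those that passed the filter through ΔTreg alone. Of skeletal muscle markers 2 of 5 were lower, and of fibroblast markers 1 of 7 was higher. Hair follicle and mast cell markers gave 0 of 5 each, at an unadjusted p below 0.05 also 0 and by DESeq2 0.

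Endothelial sums lay between 194 and 258 CPM with Pecam1 the most abundant, adipocyte sums between 270 and 468 CPM with Fabp4, and mast cell sums between 52.7 and 146 CPM with Mcpt4, over all mice. Bone and cartilage genes were counted because Mmp13 is also a gene of osteoblasts and hypertrophic chondrocytes. Their sum was 4.13 and 8.68 CPM in control and 1.46, 1.93 and 1.95 CPM in ΔTreg, with Acan the most abundant. Of 5, 2 were tested, and Acan fell while Col2a1 stood at -0.21 (SE 0.319). Mmp13 was at the floor in ΔLTreg, where the sum was 2.09, 2.20 and 2.00 CPM, and in ΔETreg, where it was 8.43, 7.56 and 5.31 CPM. Without Acan the sum was 0.911 and 0.797 CPM in control and 0.643, 0.921 and 0.680 CPM in ΔTreg, so these groups overlapped. Their part in the result was not tested.

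Skeletal muscle markers were counted because a biopsy may hold some of the muscle under the skin. They summed to 1116 and 1215 CPM in control, 1091, 902 and 1511 CPM in ΔETreg, 3180, 1306 and 4166 CPM in ΔLTreg, and 1514, 1069 and 2025 CPM in ΔTreg, with Acta1 the most abundant. ΔLTreg replicates 1 and 3 were the highest. In ΔTreg against control 1 of 5 rose, Myh4 (3.46, SE 0.725), which was 2.69 without ΔTreg replicate 3 and was lost without control replicate 2 (adjusted p = 0.0606 by edgeR), while Ckm (0.88, SE 0.419) and Tnnt3 (0.39, SE 0.367) did not pass in the main fit. Ckm passed without a filter on low counts (adjusted p = 1.89e-05 by edgeR), with edgeR on the 2 groups (0.0233) and with DESeq2 (0.0420), and Tnnt3 with DESeq2 (0.0257). The count was 2 of 5 without a filter and with edgeR on the 2 groups, 3 with DESeq2 and 0 without control replicate 2. No marker was at 0, and their part in the result was not tested.

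The gene with the most similar profile to each member was sought over the 11 libraries, as the smallest root mean square difference between log2 CPM profiles centred on their means, among genes with a mean count of at least 50. It was Rnase2a for Mmp13 (0.569), Ccl7 for Mmp12 (0.325), Ccl6 for Timp1 (0.252), Gsap for Mmp9 (0.189) and Cx3cr1 for Mmp3 (0.198). For the steadier members it was Loxl1 for Mmp2 (0.0766), Marveld1 for Mmp14 (0.0514), Cygb for Timp2 (0.0667) and Carhsp1 for Timp3 (0.0361). Rnase2a had at most 1 count in each of the 8 mice outside ΔTreg, and 237, 145 and 267 counts in ΔTreg.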

How the data were processed

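RNA from 11 skin biopsies had been sequenced, trimmed with Trimmomatic 0.36, aligned with STAR 2.5.2b and assigned to genes with featureCounts of Subread 1.5.2, per the submitters' processing notes. The raw count per gene and mouse, as deposited by the authors, was used without change; the strand setting and the annotation release of the counting are not given in the sources used here. The 10 members, the gene lists and the tests were chosen with earlier results of these data known. Genes were filtered with filterByExpr, scaled by TMM and tested with edgeR 4.0.16 (quasi-likelihood test, limma 3.58.1, R 4.3.3) in 1 fit of all 11 libraries, with Benjamini-Hochberg adjustment over 18375 genes. The labels put all libraries in 1 batch. Standard errors were the log2 fold change divided by the root of the F statistic, and intervals of log2 fold changes used the t distribution with the test's degrees of freedom. Exon lengths and positions came from GENCODE vM21. The fitting code was tested on simulated data.

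Total counts ran from 23377571 to 34159435 per mouse, and 3 counts per library was the floor of detection. To see whether any library had been deposited more than once, pairs within a group were compared, and the median chi-square of 1.09 to 4.29 per gene, against 0.455 for counting noise alone, showed no such copy. Replicates were separate mice.

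Named genes were all members, other MMP and TIMP genes past adjustment in any comparison, the 3 genes of smallest p in ΔTreg against control in each other list, any list gene past adjustment in ΔETreg against control (there were 0 by edgeR), and the most alike gene of each member. DESeq2 called 1 marker of wounded or activated keratinocytes higher in ΔETreg than in control. Other genes in the text were named after their values were seen. The lists held other MMPs and TIMPs, ADAM and ADAMTS proteases, the plasminogen system and MMP regulators, and matrix substrates. They also held cytokines and growth factors with AP-1 subunits and ETS factors, and markers of 12 cell types or states. Alternatives were RLE size factors, no filter on low counts, at least 10 counts in every library, edgeR on the 2 groups only, DESeq2 1.42.0 (Wald test), and leaving out each mouse.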

Additional observations from a re-analysis of the deposited data

How the results depend on the processing

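The calls of Mmp9, Mmp12 and Timp1 in ΔTreg against control, ΔLTreg and ΔETreg held under RLE size factors, without a filter, with edgeR or DESeq2 on the 2 groups, and without each mouse. Mmp13, which passed the filter through ΔTreg alone, was not tested where every library needed at least 10 counts. When 1 control mouse was left out, the lone control was assumed to vary like the other groups. Few counts limit Mmp3, Mmp10, Mmp12 and Mmp13 outside ΔTreg. No paired analysis was possible because the labels number the libraries in series and give no number that links mice of different groups. The cause of the differences below was not tested.

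Without a filter on low counts, 54 genes passed in ΔETreg against control, 1790 genes and 3 members in ΔLTreg against control, and 2173 genes and 4 members in ΔETreg against ΔLTreg. With at least 10 counts in every library 0 genes passed in ΔETreg against control, and the log2 difference became 0.0050 for Timp3 in ΔLTreg against control and 0.0036 for Timp2 in ΔTreg against control. With edgeR on the 2 groups alone, 0 genes passed in ΔETreg against control, 154 in ΔLTreg against control, 540 genes and 1 member in ΔETreg against ΔLTreg, and 8 members in ΔTreg against ΔETreg. With DESeq2 it was 19 genes in ΔETreg against control and 8 members in ΔTreg against ΔETreg.

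Leaving out each mouse gave 0 to 7 genes in ΔETreg against control, 292 to 903 genes and 0 to 1 members in ΔLTreg against control, 353 to 1172 genes and 0 to 2 members in ΔETreg against ΔLTreg, 2026 to 3493 genes in ΔTreg against control, and 1987 to 2942 genes in ΔTreg against ΔLTreg. It turned the sign of small log2 differences. In ΔETreg against control the ranges were -0.29 to 0.11 for Mmp2, -0.63 to 0.33 for Mmp3, -0.14 to 0.13 for Mmp12 and -0.10 to 0.046 for Timp3. In ΔLTreg against control they were -0.12 to 0.63 for Mmp12, -0.39 to 0.56 for Timp1, -0.23 to 0.076 for Timp2 and -0.11 to 0.081 for Timp3. In ΔETreg against ΔLTreg they were -0.58 to 0.17 for Mmp12, -0.14 to 0.15 for Timp2 and -0.10 to 0.083 for Timp3. Mmp13 gave -0.52 to 0.90 there on 5 pooled counts in each group, at the floor, and nothing is read from it. In ΔTreg against ΔLTreg they were -0.43 to 0.027 for Mmp3, -0.024 to 0.22 for Mmp14 and -0.082 to 0.21 for Timp2, and in ΔTreg against control -0.051 to 0.025 for Timp2, -0.31 to 0.083 for Krt25 and -0.32 to 0.058 for Fabp4. Member differences also passed the threshold anew in 19 fits with other settings and 5 that left out a mouse, and lost it in 1 and 13.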
